A study of Rattus norvegicus with 9 samples.

Results

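Extracellular nucleotides and adenosine are read and cleared by a small set of genes, and 10 of them were followed here among the 20442 genes measured in rat bone marrow-derived dendritic cells: the adenosine receptors Adora2a, Adora2b and Adora3, the enzymes Entpd1, Nt5e and Ada, and the nucleotide receptors P2rx4, P2rx7, P2ry6 and P2ry14. The members were chosen by name, 9 of them by the symbol in the expression table and Adora3 by its RefSeq gene ID. RNA was sequenced from 9 cultures in 3 groups of 3: LPS+EVs, LPS and Control. The LPS+EVs group received LPS together with extracellular vesicles (EVs) derived from ASCs, the LPS group is labelled with LPS, and the Control group with no treatment. All cells were primary and wild type, and all cultures were kept in 10% serum with 20 ng/mL GM-CSF and 20 ng/mL IL-4. LPS was given at 1 µg/mL and the treatment lasted 24 h. The labels also carry a concentration of 50 ng/mL without naming its agent or the groups that received it, so LPS and that agent cannot be told apart in any difference from Control. The strain, sex and age of the rats and the EV dose are not given in the sources used here. The cultures are labelled as biological replicates, with no word on whether they came from separate animals. The p-values thus weigh differences between groups against the spread between these cultures.

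ATP and other nucleotides leave stressed or dying cells and act on P2X receptors, which are ion channels opened by ATP, and on P2Y receptors, which couple to G proteins. CD39, encoded by Entpd1, removes phosphates from ATP and ADP, and CD73, encoded by Nt5e, turns the resulting AMP into adenosine. Adenosine acts on its own G protein-coupled receptors and is removed by uptake, by phosphorylation and by adenosine deaminase, encoded by Ada. In dendritic cells, ATP through P2X7 is known as a trigger of the inflammasome, and adenosine through the Adora2a receptor as a brake on inflammatory cytokines.

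Levels are given in FPKM (fragment counts divided by gene length and by the library's total), which is per length and allows genes to be set side by side. Differences are in log2(FPKM + 1) and come from limma fitted to all 9 libraries and to every gene that reached 1 FPKM in 3 or more libraries, with an adjusted p under 0.05 counted as passing. The recovered total per library was 31681214 to 38859108 fragments. Of 14 dendritic cell markers, 10 reached 1 FPKM in every LPS+EVs library, 10 in every LPS library and 11 in every Control library, with Itgax (CD11c) among them. Flt3, Xcr1 and Clec9a, markers of conventional dendritic cells, were below 1 FPKM in every library, and 9 of 10 macrophage markers reached 1 FPKM in every LPS+EVs library, 8 in every LPS library and 9 in every Control library. The median of all tested genes differed by -0.19 between LPS and Control, and by 0.00 after median-of-ratios scaling, another way of setting libraries on 1 scale.

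All 10 members passed the filter on low values, Adora3 only through its Control libraries. The test in LPS against Control was passed by 4 of the 10. Adora2a and Ada were higher with LPS, where 12.3% of all tested genes were higher. Adora3 and Entpd1 were lower with LPS, as were 28.7% of all tested genes. In all, 41.0% of tested genes passed in that comparison, so 4 of 10 members is close to the share among all genes. The same 4 members were those whose libraries did not overlap between LPS and Control, beside 55.1% of all tested genes. After median-of-ratios scaling 45.1% of the genes called in LPS against Control were higher, against 29.9% as deposited, and 45.6% against 30.5% in LPS+EVs against Control. In LPS+EVs against Control these 4 members passed again with the same directions, beside 44.3% of all tested genes in either direction, 13.5% higher and 30.8% lower, and beside 60.2% free of overlap. In LPS+EVs against LPS no member passed, and the background was 0.0%. Both comparisons with Control share the Control libraries.

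**Figure D1:**
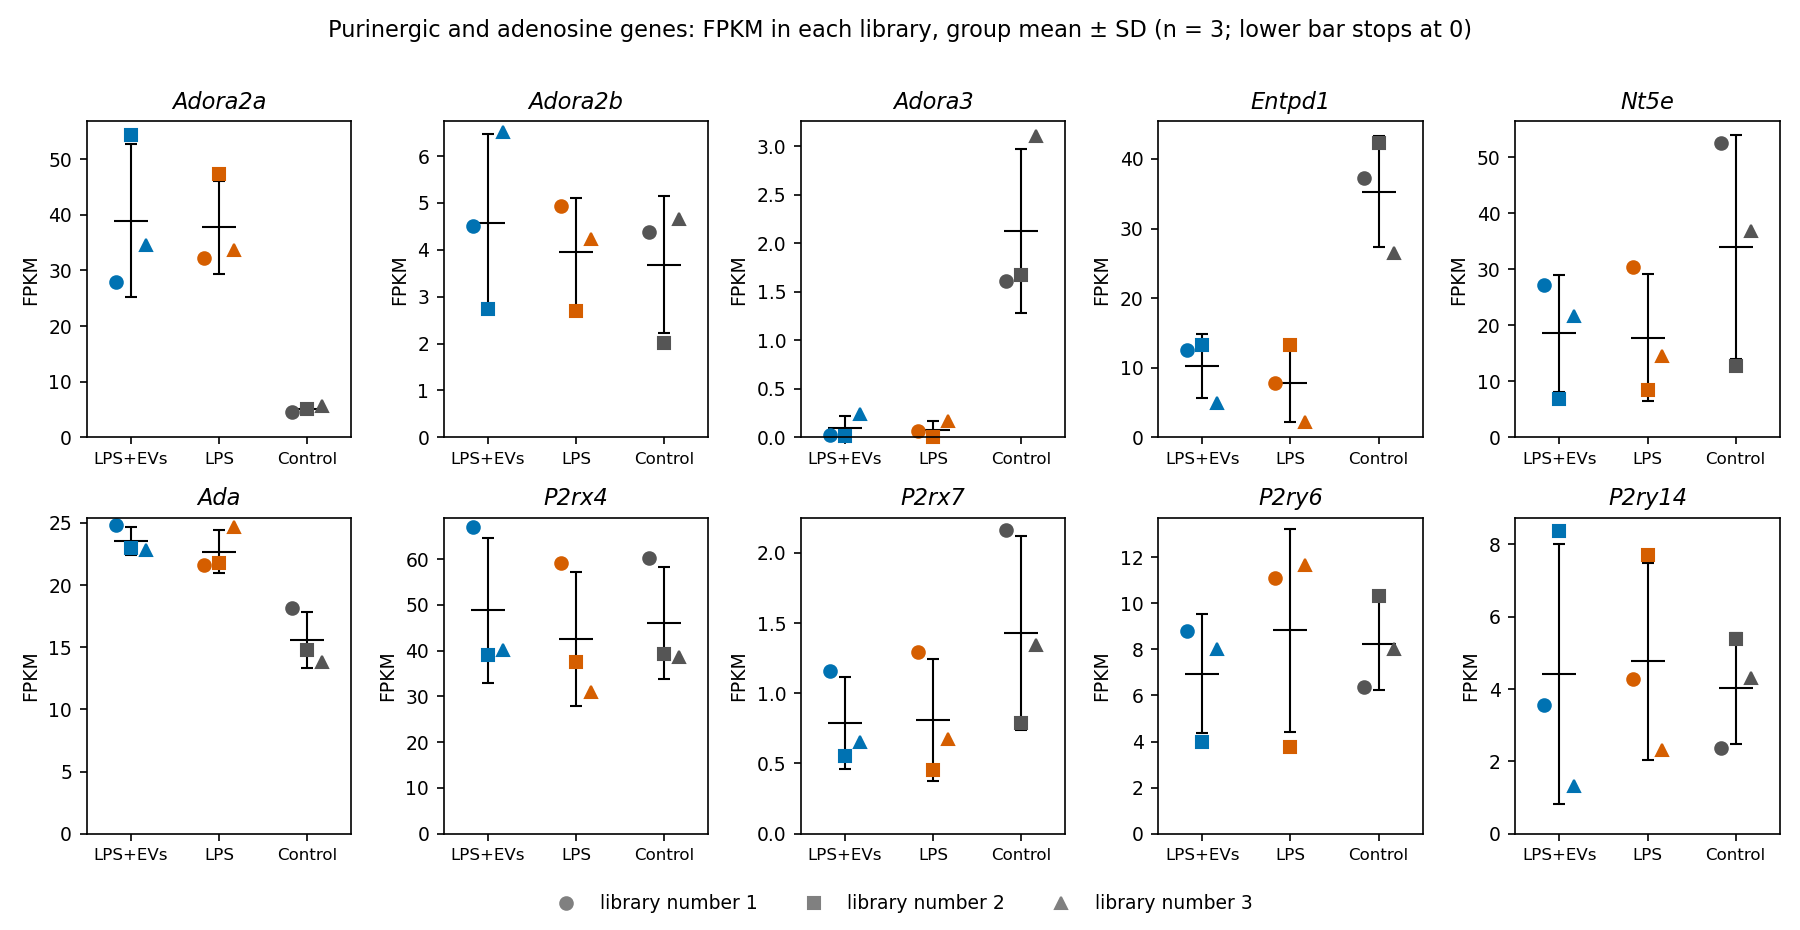
FPKM of the 10 members in each culture (points) with the group mean and SD (n = 3), groups on the horizontal axis. Adora2a lies at 27.9 FPKM or more in every LPS+EVs and LPS library and at 5.72 FPKM or less in Control, and Adora3 lies at 0.245 FPKM or less in LPS+EVs and LPS and at 1.61 FPKM or more in Control.

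Adora2a, an adenosine receptor that raises cAMP, had the largest difference of the 10 members on the log2(FPKM + 1) scale, while with 0.1 FPKM added Adora3 came first, at -3.70 in LPS minus Control against 2.84 for Adora2a. It had 27.9, 54.3 and 34.6 FPKM in LPS+EVs cultures, 32.2, 47.3 and 33.7 FPKM in LPS cultures, and 4.62, 5.06 and 5.72 FPKM in Control cultures. Every treated culture lay above every Control culture, and the LPS+EVs and LPS cultures overlapped. The mean was 38.9 ± 13.7 FPKM with LPS+EVs, 37.7 ± 8.35 FPKM with LPS and 5.13 ± 0.555 FPKM in Control (SD, n = 3 each). LPS against Control gave a 7.35-fold higher mean and a difference of 2.64 (SE 0.24, limma adjusted p = 9.58e-05), and LPS+EVs against Control gave 2.65 (limma adjusted p = 9.64e-05). The Adora2a transcript was thus higher in both groups that received LPS than in Control.

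Adora3, an adenosine receptor that lowers cAMP through Gi, moved the other way. It had 0.0204, 0.0108 and 0.245 FPKM in LPS+EVs cultures, 0.0612, 0 and 0.174 FPKM in LPS cultures, and 1.61, 1.67 and 3.10 FPKM in Control cultures. In fragments these are 2, 1 and 20 with LPS+EVs, 6, 0 and 17 with LPS, and 161, 140 and 309 in Control. Cultures 1 and 2 of both treated groups thus held 6 fragments or fewer, culture 3 was the highest of each group, and no treated culture overlapped with Control. A count of 0 in the second LPS culture allows up to 0.0322 FPKM, the level of 3 fragments there, for counting error only. The LPS mean was 27.2-fold lower than the Control mean, and 69.6-fold lower without LPS replicate 3. The difference of -1.51 (SE 0.20, limma adjusted p = 0.000655) understates this because 1 FPKM was added before the log. Adora3 passed the filter only through its Control libraries. In RefSeq the gene overlaps Tmigd3, which had at most 0.125 FPKM in LPS+EVs, 0.0594 FPKM in LPS and 0.139 FPKM in Control.

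Adora3 is also known from granulocytes and, in rodents, from mast cells, and markers of these cells were checked beside it. The 8 neutrophil markers summed to 4.38 to 18.4 FPKM in LPS+EVs, 1.94 to 7.33 FPKM in LPS and 31.6 to 265 FPKM in Control, with Ltf at 0 in all LPS+EVs libraries, and 3 of the 5 tested were lower in LPS than in Control. The 7 mast cell, basophil and eosinophil markers found of 8 listed summed to 5.76 to 20.2 FPKM in LPS+EVs, 5.58 to 15.7 FPKM in LPS and 5.56 to 26.3 FPKM in Control, with Fcer1a at 0 in all LPS+EVs libraries. The neutrophil sum was lower after LPS, and the mast cell sum overlapped between all groups. The part of granulocytes and mast cells in the Adora3 difference was not tested. In bulk RNA fewer cells of a type and less RNA per cell cannot be told apart.

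Adora2b, an adenosine receptor of lower affinity that also raises cAMP, had 4.50, 2.73 and 6.51 FPKM in LPS+EVs cultures, 4.93, 2.69 and 4.24 FPKM in LPS cultures, and 4.38, 2.01 and 4.66 FPKM in Control cultures. The groups overlapped fully. LPS minus Control was 0.11 (95% interval -0.65 to 0.86, limma adjusted p = 0.814).

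The make-up of the adenosine receptor transcripts was different after LPS. Adora2a held 87.8 ± 6.41% of the summed adenosine receptor FPKM in LPS+EVs, 89.5 ± 4.51% in LPS and 47.7 ± 8.61% in Control. Adora2b held 11.4 ± 5.79% in LPS+EVs, 9.87 ± 4.03% in LPS and 32.8 ± 9.15% in Control. Adora3 held 0.223 ± 0.317% in LPS+EVs, 0.206 ± 0.229% in LPS and 19.0 ± 3.96% in Control. In Control, 3 of these transcripts thus had levels within a few FPKM of each other, and after LPS most of the summed FPKM was Adora2a. The sum itself was 43.8 ± 12.3 FPKM in LPS+EVs, 41.9 ± 7.03 FPKM in LPS and 11.0 ± 2.39 FPKM in Control. Adora1 held under 1% in every library and did not pass the filter.

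**Figure D2:**
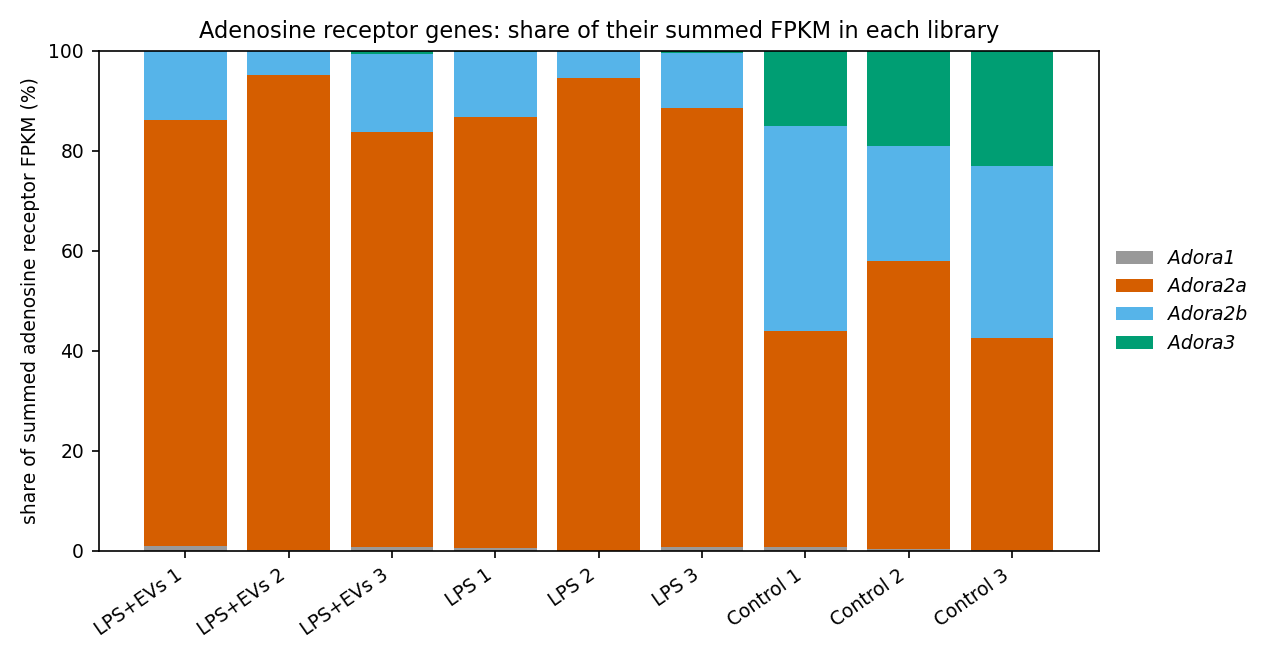
Stacked bars of the share (%) of Adora1, Adora2a, Adora2b and Adora3 in the summed adenosine receptor FPKM of each of the 9 cultures. Adora2a takes 83.1 to 95.1% in LPS+EVs cultures, 86.1 to 94.6% in LPS cultures and 42.3 to 57.7% in Control cultures.

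Entpd1, which encodes CD39 and starts the path from ATP to adenosine, was lower after LPS. It had 12.5, 13.3 and 4.93 FPKM in LPS+EVs cultures, 7.82, 13.3 and 2.21 FPKM in LPS cultures, and 37.2, 42.2 and 26.5 FPKM in Control cultures. No treated culture reached the lowest Control culture, and culture 3 was the lowest of each group. The mean was 10.2 ± 4.61 FPKM in LPS+EVs, 7.78 ± 5.55 FPKM in LPS and 35.3 ± 8.03 FPKM in Control (SD, n = 3 each). LPS against Control gave a 4.54-fold lower mean and a difference of -2.27 (SE 0.54, limma adjusted p = 0.0106). LPS+EVs against Control gave -1.77 (limma adjusted p = 0.0269), a call that did not hold without filtering (limma adjusted p = 0.0633), with median-of-ratios scaling (0.0643), or without Control replicate 1 (0.0754), Control replicate 2 (0.0796) or LPS+EVs replicate 3 (0.0843). With the culture number as a block it held at a limma adjusted p of 0.000853 in that comparison and of 0.000278 in LPS against Control.

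Nt5e, which encodes CD73 and makes adenosine from AMP, varied with the culture number. It had 27.1, 6.91 and 21.6 FPKM in LPS+EVs cultures, 30.4, 8.42 and 14.6 FPKM in LPS cultures, and 52.5, 12.8 and 36.8 FPKM in Control cultures. Culture 2 was the lowest in each group, and the groups overlapped, but within each number both treated cultures lay below the Control culture. LPS minus Control was -0.87 (SE 0.66, limma adjusted p = 0.319), and with the culture number as a block the same difference had an SE of 0.17 and passed (limma adjusted p = 0.00371). LPS+EVs minus Control was -0.82 (limma adjusted p = 0.338, and 0.00425 with the block). Libraries numbered 1 and 3 alone, a choice made after seeing the data, gave -1.02 for LPS against Control (limma adjusted p = 0.0450) and -0.83 for LPS+EVs against Control (limma adjusted p = 0.0795). In RefSeq Nt5e overlaps Snx14, which ranged from 3.57 to 5.10 FPKM in LPS+EVs, 2.9998 to 5.20 FPKM in LPS and 3.65 to 4.73 FPKM in Control.

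CD73 is also a surface marker of stromal cells, and the stromal list moved with the culture number too. Its 9 genes summed to 606, 203 and 985 FPKM in LPS+EVs cultures 1, 2 and 3, to 826, 151 and 510 FPKM in LPS cultures, and to 440, 202 and 554 FPKM in Control cultures. Culture 2 was again the lowest of each group. Cultures 1 and 3 did not keep the same order: Nt5e was highest in culture 1 of each group. The stromal sum was highest in culture 1 with LPS and in culture 3 with LPS+EVs and in Control. None of the 9 was at 0 throughout a group, and 1 of the 9 was higher and none lower in LPS than in Control. The part of stromal cells in the Nt5e level was not tested.

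Ada, adenosine deaminase, which turns adenosine into inosine, was modestly higher after LPS. It had 24.8, 23.0 and 22.8 FPKM in LPS+EVs cultures, 21.6, 21.8 and 24.7 FPKM in LPS cultures, and 18.1, 14.8 and 13.8 FPKM in Control cultures. All treated cultures lay above all Control cultures. LPS against Control gave a 1.46-fold higher mean and a difference of 0.52 (SE 0.13, limma adjusted p = 0.0112), and LPS+EVs against Control gave 0.57 (limma adjusted p = 0.00671). Enzyme activity and adenosine itself were not measured, and other genes of adenosine removal are given with the pathway lists.

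**Figure D3:**
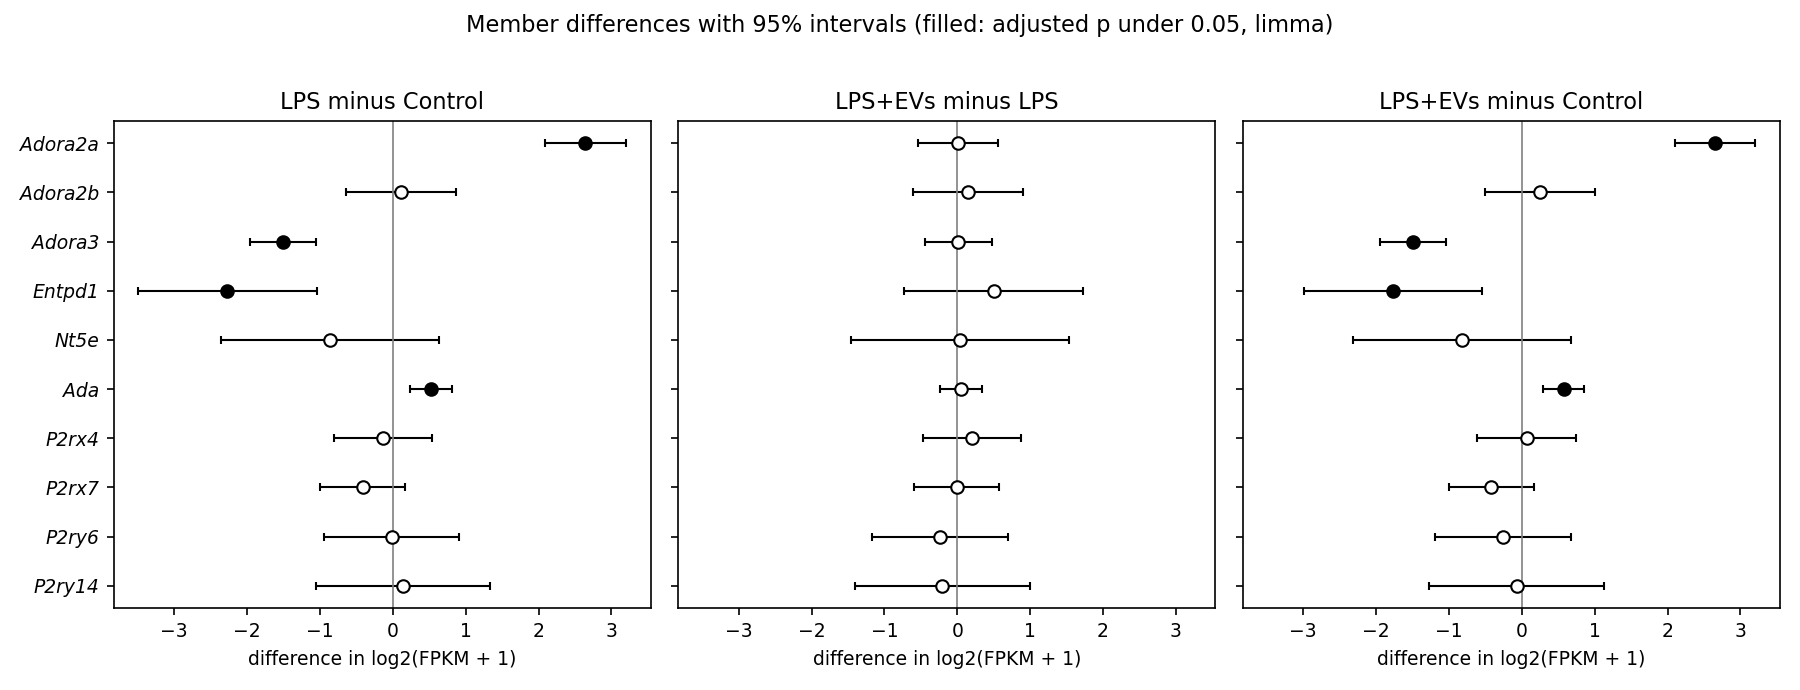
Difference in log2(FPKM + 1) with its 95% interval for each member in the 3 comparisons, filled where the adjusted p was under 0.05. Adora2a and Ada lie above 0 and Adora3 and Entpd1 below 0 in both comparisons with Control, and every interval of LPS+EVs minus LPS spans 0.

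The promoters of the members that passed the test are shown where the RefSeq promoter table used here holds one, because these are the genes whose transcripts differed between LPS and Control. Each is 300 bases from RefSeq build GRCr8, from 250 before to 50 after the annotated start, 5′ to 3′ on the gene's own strand, with matches to 6 motifs in capitals. That table matched 8 of the 10 members, and the promoters of Adora2a and P2ry6 are not shown here.
Adora3, chr2:196076792-196077091, plus strand: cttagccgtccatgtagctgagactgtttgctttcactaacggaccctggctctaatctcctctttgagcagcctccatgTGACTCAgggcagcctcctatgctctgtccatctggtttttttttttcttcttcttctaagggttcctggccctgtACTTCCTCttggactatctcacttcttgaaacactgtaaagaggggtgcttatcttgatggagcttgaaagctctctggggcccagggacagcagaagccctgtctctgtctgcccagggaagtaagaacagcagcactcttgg
Entpd1, chr1:249422614-249422913, plus strand: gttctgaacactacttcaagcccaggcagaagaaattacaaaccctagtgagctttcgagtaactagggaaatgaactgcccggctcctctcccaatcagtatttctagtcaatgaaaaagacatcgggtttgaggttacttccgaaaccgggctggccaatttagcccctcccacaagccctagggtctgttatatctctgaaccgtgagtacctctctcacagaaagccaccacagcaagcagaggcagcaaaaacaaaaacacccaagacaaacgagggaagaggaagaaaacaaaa
Ada, chr3:172842234-172842533, minus strand: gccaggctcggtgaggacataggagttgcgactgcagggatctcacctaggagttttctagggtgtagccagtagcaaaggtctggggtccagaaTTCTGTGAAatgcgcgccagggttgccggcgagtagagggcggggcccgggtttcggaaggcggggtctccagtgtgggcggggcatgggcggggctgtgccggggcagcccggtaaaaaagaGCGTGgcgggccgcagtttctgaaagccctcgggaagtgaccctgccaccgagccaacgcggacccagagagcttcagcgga
The motifs were searched on both strands. They were the NF-kB motif, the AP-1 motif TGANTCA, the CRE core TGACGT, the hypoxia element core (ACGTG or GCGTG), the PU.1 motif (GAGGAACT or GAGGAAGT) and the STAT motif known as GAS (TTCNNNGAA). The CRE and hypoxia cores can share letters. In Adora3 the capitals mark an AP-1 match that starts at -170 and a PU.1 match on the other strand that starts at -94, counted from the start site. In Ada they mark a GAS match at -155 and a hypoxia core at -32, and Entpd1 holds none of the 6 in this window. Among 33469 RefSeq promoters of the same length, 7.51% held the NF-kB motif, 7.33% AP-1, 7.94% CRE, 41.6% the hypoxia core, 3.87% PU.1 and 8.87% GAS. A match is a run of letters and not a measured binding site.

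With all 9 libraries and no block, the nucleotide receptors among the members did not pass the test in any comparison. P2rx4, the P2X4 channel of intracellular and surface membranes, had the highest mean of the members in every group, with ranges that overlapped the next member's. It had 67.1, 39.1 and 40.2 FPKM in LPS+EVs cultures, 59.1, 37.6 and 31.0 FPKM in LPS cultures, and 60.3, 39.2 and 38.7 FPKM in Control cultures. Culture 1 was the highest of each group and the groups overlapped. LPS minus Control was -0.13 (95% interval -0.81 to 0.54, limma adjusted p = 0.746), and 0.08 with median-of-ratios scaling. In RefSeq the gene overlaps Camkk2, which ranged from 0.486 to 1.67 FPKM in LPS+EVs and 0.564 to 1.93 FPKM in LPS, against 4.38 to 5.41 FPKM in Control.

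P2rx7, the ATP-gated channel that triggers the NLRP3 inflammasome, had 1.16, 0.552 and 0.653 FPKM in LPS+EVs cultures, 1.29, 0.456 and 0.675 FPKM in LPS cultures, and 2.16, 0.789 and 1.35 FPKM in Control cultures. The groups overlapped, with culture 2 the lowest in each, and within each number both treated cultures lay below the Control culture. LPS minus Control was -0.42 (SE 0.26, limma adjusted p = 0.224). With the block it passed (limma adjusted p = 0.0259), but not with the block and median-of-ratios scaling together (0.0796). LPS+EVs minus Control was -0.42 (limma adjusted p = 0.213, 0.0236 with the block, and 0.0827 with the block and that scaling). P2rx7 is the coding neighbour of P2rx4 on chromosome 12 in RefSeq GRCr8, and its level was far below that of P2rx4 in every culture.

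P2rx4 accordingly made up 96.8 ± 0.591% of the summed P2X FPKM in LPS+EVs, 96.2 ± 1.12% in LPS and 85.7 ± 3.25% in Control. The rest of the Control sum was mostly P2rx1, a fast-desensitising channel, at 11.2 ± 3.49% of the sum. P2rx1 averaged 0.358 ± 0.130 FPKM in LPS+EVs, 0.422 ± 0.0864 FPKM in LPS and 5.71 ± 0.756 FPKM in Control (SD, n = 3 each), with a difference of -2.23 in LPS against Control (limma adjusted p = 1.48e-05). It passed the filter only through its Control libraries. P2rx1 is also expressed in neutrophils, whose markers were lower after LPS as given beside Adora3, and their part in its difference was not tested.

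P2ry6, the UDP receptor, had 8.82, 3.997 and 8.0 FPKM in LPS+EVs cultures, 11.1, 3.74 and 11.6 FPKM in LPS cultures, and 6.37, 10.3 and 8.02 FPKM in Control cultures. LPS cultures 1 and 3 lay above every Control culture and LPS culture 2 lay below every Control culture. Within numbers, LPS minus Control was 0.72, -1.26 and 0.49 for cultures 1, 2 and 3, and over all 9 libraries it was -0.02 (SE 0.41, limma adjusted p = 0.976). With libraries numbered 1 and 3 alone, a choice made after seeing the data, it was 0.60 (limma adjusted p = 0.0176). It was 0.44 without LPS replicate 2 (limma adjusted p = 0.269) and 0.14 without Control replicate 2 (limma adjusted p = 0.839). The gene was thus called only under that later choice.

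P2ry14, the UDP-glucose receptor, had 3.57, 8.36 and 1.31 FPKM in LPS+EVs cultures, 4.28, 7.70 and 2.31 FPKM in LPS cultures, and 2.36, 5.39 and 4.30 FPKM in Control cultures. Culture 2 was the highest of each group and the groups overlapped. LPS minus Control was 0.14 (95% interval -1.06 to 1.34, limma adjusted p = 0.851). P2ry14 lies within Med12l in RefSeq, and Med12l had at most 0.0616 FPKM in LPS+EVs, 0.0374 FPKM in LPS and 0.0389 FPKM in Control.

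Among P2Y receptors the largest share went to P2ry2, the ATP and UTP receptor and coding neighbour of P2ry6, which was named after its values were seen. It held 85.0 ± 5.05% of the P2Y sum in LPS+EVs, 81.8 ± 2.43% in LPS and 79.1 ± 1.93% in Control, and its own level overlapped between LPS and Control (limma adjusted p = 0.559). P2ry1, an ADP receptor, averaged 0.190 ± 0.248 FPKM in LPS+EVs, 0.339 ± 0.241 FPKM in LPS and 2.25 ± 0.503 FPKM in Control (SD, n = 3 each), with a difference of -1.28 in LPS against Control (limma adjusted p = 0.00181), and it too passed the filter only through Control. The other ADP receptors, P2ry12 and P2ry13, also named after their values were seen, did not pass the filter. P2ry12 ranged up to 0.00960 FPKM in LPS+EVs and 0.00906 FPKM in LPS, against 0.443 to 0.605 FPKM in Control.

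The order of the members by level differed between the groups. In LPS+EVs it ran P2rx4, Adora2a, Ada, Nt5e, Entpd1, P2ry6, Adora2b, P2ry14, P2rx7 and Adora3. In LPS it ran P2rx4, Adora2a, Ada, Nt5e, P2ry6, Entpd1, P2ry14, Adora2b, P2rx7 and Adora3. In Control it ran P2rx4, Entpd1, Nt5e, Ada, P2ry6, Adora2a, P2ry14, Adora2b, Adora3 and P2rx7. Adora2a was rank 2 in both treated groups against rank 6 in Control, and Entpd1 was rank 5 in LPS+EVs and 6 in LPS against rank 2 in Control. Most neighbours in these orders overlapped over their 3 cultures. The ranges were apart between Adora2a and Ada in both treated groups, between P2rx7 and Adora3 in both treated groups, between P2ry14 and P2rx7 in LPS+EVs, between Adora2b and P2rx7 in LPS, and between Ada and P2ry6 and between P2ry6 and Adora2a in Control.

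The question of the study was what the EVs change in cells given LPS. LPS+EVs against LPS gave no call among 11141 genes by limma, and 295 genes had an unadjusted p under 0.05, none of them a member. That number was 1886 without LPS replicate 2, 81 without LPS replicate 3 and 80 without LPS+EVs replicate 3, and at most 1 gene passed. The members differed by -0.24 for P2ry6 at the low end and by 0.50 for Entpd1 at the high end, each with a limma adjusted p of 0.999. The Entpd1 interval ran from -0.73 to 1.72, and within numbers its difference was 0.62, -0.004 and 0.89. For Adora2a the difference was 0.01 (95% interval -0.54 to 0.56) and for Ada 0.05 (95% interval -0.23 to 0.34). For Nt5e it was 0.04 with a wider interval of -1.45 to 1.54. No member was free of overlap between LPS+EVs and LPS, beside 6.62% of all tested genes. P2rx4 was higher with EVs in all 3 numbers, by 0.18, 0.06 and 0.37, with a difference of 0.20 (95% interval -0.48 to 0.88). These intervals leave room for differences of either sign.

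**Figure D4:**
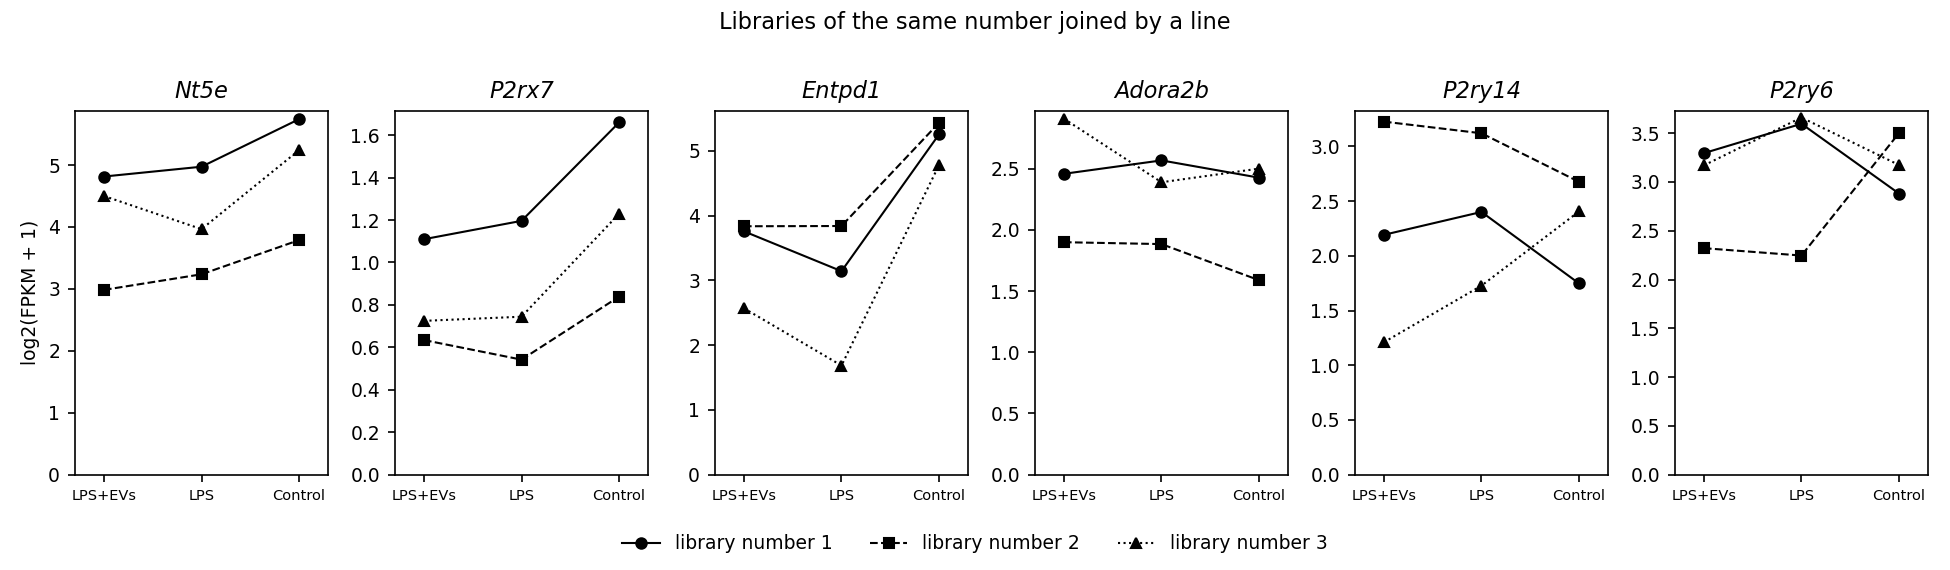
Level as log2(FPKM + 1) of 6 members in each culture, groups on the horizontal axis, with lines that join the cultures of the same replicate number. Culture 2 is the lowest of each group for Nt5e, Adora2b and P2rx7 and the highest of each group for P2ry14 and Entpd1, and for P2ry6 it is the lowest in LPS+EVs and LPS and the highest in Control.

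The culture number was a second axis along which the members varied. Nt5e, Adora2b and P2rx7 were lowest in culture 2 in all 3 groups, P2ry14 and Entpd1 were highest there, and Entpd1 was lowest in culture 3 in all 3 groups. The sum of the 14 dendritic cell markers, none of them at 0 throughout a group, moved with the number as well. They summed to 1720, 7700 and 2181 FPKM in LPS+EVs cultures 1, 2 and 3, to 1298, 7397 and 2189 FPKM in LPS cultures, and to 2096, 8483 and 3350 FPKM in Control cultures. Culture 2 thus had the highest sum in every group. Cd74, RT1-Da and RT1-Ba made up most of it, with Cd74 alone at 1339, 6102 and 1589 FPKM in LPS+EVs cultures. Not every marker followed the sum in every group. Sirpa was lowest in culture 2 with LPS+EVs (92.3, 82.7 and 103 FPKM) and with LPS (94.2, 71.4 and 103 FPKM). In Control it was highest in culture 2 (159, 174 and 150 FPKM). The part of dendritic cells in the members' levels was not tested. Across all tested genes, deviations from the group means correlated at 0.284 to 0.863 between libraries of the same number, against -0.745 to 0.426 between libraries of different numbers. The deviations within a group of 3 sum to 0, so positive same-number values push those of different numbers down. Part of this contrast is thus set by the centring. What the number stands for beyond a biological replicate is not given in the sources used here.

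Around the members, 85 further genes were listed, of which 61 were tested. They cover nucleotide and adenosine receptors, nucleotide hydrolysis and release, and adenosine breakdown and uptake. Of the 61, 20 belong to cAMP signalling and 7 to the inflammasome. In LPS against Control 6 of them (9.84%) were higher and 14 (23.0%) lower, beside 12.3% and 28.7% of all tested genes, and 3 of the 14 passed the filter only through Control. Their differences had a median of 0.08 beside -0.19 over all tested genes, and 0 passed in LPS+EVs against LPS. The counts of the single lists are small and are given as descriptions beside these shares. In LPS+EVs against Control 7 were higher and 13 lower. Of these lists, adenosine breakdown and uptake held the most genes that were lower in LPS than in Control.

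In the list of adenosine breakdown and uptake, 2 of 14 tested genes were higher in LPS than in Control, with Ada among them, and 6 were lower. Ampd3, an AMP deaminase that diverts AMP to IMP, averaged 49.2 ± 5.01 FPKM in LPS+EVs, 44.7 ± 7.74 FPKM in LPS and 9.71 ± 0.107 FPKM in Control (LPS against Control 2.08, limma adjusted p = 1.69e-05). Ahcy, which splits S-adenosylhomocysteine into adenosine and homocysteine, averaged 14.3 ± 2.72 FPKM in LPS+EVs, 13.6 ± 3.28 FPKM in LPS and 74.8 ± 7.02 FPKM in Control (-2.39, limma adjusted p = 5e-05). Both lay clear of Control in all treated cultures. The nucleoside transporter Slc29a2, which passed the filter only through Control, differed by -1.44 (limma adjusted p = 0.000183), and Aprt, which salvages adenine, by -1.16 (limma adjusted p = 0.000213). Outside the rule for named genes and chosen after their values were seen, the transporter Slc29a1 differed by -1.18 (limma adjusted p = 0.00138) and adenosine kinase, Adk, by -1.14 (limma adjusted p = 0.00991).

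In the list of extracellular nucleotide hydrolysis, 1 of 10 tested genes was higher and 2 were lower in LPS than in Control, with Entpd1 among the lower. Entpd5, a nucleoside diphosphatase of the secretory path, averaged 10.4 ± 2.26 FPKM in LPS+EVs, 9.95 ± 1.63 FPKM in LPS and 5.57 ± 1.19 FPKM in Control (0.74, limma adjusted p = 0.0192). Entpd6 averaged 1.22 ± 0.368 FPKM in LPS+EVs, 1.22 ± 0.779 FPKM in LPS and 2.68 ± 0.400 FPKM in Control (-0.79, limma adjusted p = 0.0481). In LPS+EVs against Control Entpd6 did not pass (-0.74, limma adjusted p = 0.0580), while Entpd5 did (0.79, limma adjusted p = 0.0136), as did Entpd2, named after its values were seen (0.82, limma adjusted p = 0.0120). In the list of nucleotide release, 1 of 9 tested genes was higher and 0 lower: Panx1, a channel that lets ATP out of cells, at 4.12 ± 0.636 FPKM in LPS+EVs, 4.06 ± 0.149 FPKM in LPS and 1.96 ± 0.462 FPKM in Control (0.79, limma adjusted p = 0.00476).

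Of the genes acting on cAMP below the adenosine receptors, 1 of 20 tested was higher and 4 were lower in LPS than in Control. Pde4b, a phosphodiesterase that breaks down cAMP, averaged 20.3 ± 5.03 FPKM in LPS+EVs, 18.6 ± 5.28 FPKM in LPS and 3.67 ± 1.04 FPKM in Control (2.06, limma adjusted p = 0.000460). Its relative Pde4a differed by -0.72 (limma adjusted p = 0.00582), the protein kinase A subunit Prkacb by -0.72 (limma adjusted p = 0.00984), and the inhibitory G protein subunit Gnai2 by -0.40 (limma adjusted p = 0.0272). Among the genes named here, Gnai2 did not pass in LPS+EVs against Control (-0.28, limma adjusted p = 0.0848). Adora2a and Pde4b, which act on cAMP in opposite directions, were thus both higher. Of the 7 inflammasome genes that act after P2rx7, 2 were higher and 1 was lower. Nlrp3, the sensor, differed by 0.70 (limma adjusted p = 0.0477) and Gsdmd, the pore former, by -0.84 (limma adjusted p = 0.00507), while Il1b was the other gene that was higher (5.48, limma adjusted p = 7.05e-06). In LPS+EVs against Control only Il1b of the 7 passed (5.80, limma adjusted p = 5.14e-06), with Nlrp3 at 0.25 (limma adjusted p = 0.443) and Gsdmd at -0.45 (limma adjusted p = 0.0589). The differences between the 2 treated groups did not pass for any of them.

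**Figure D5:**
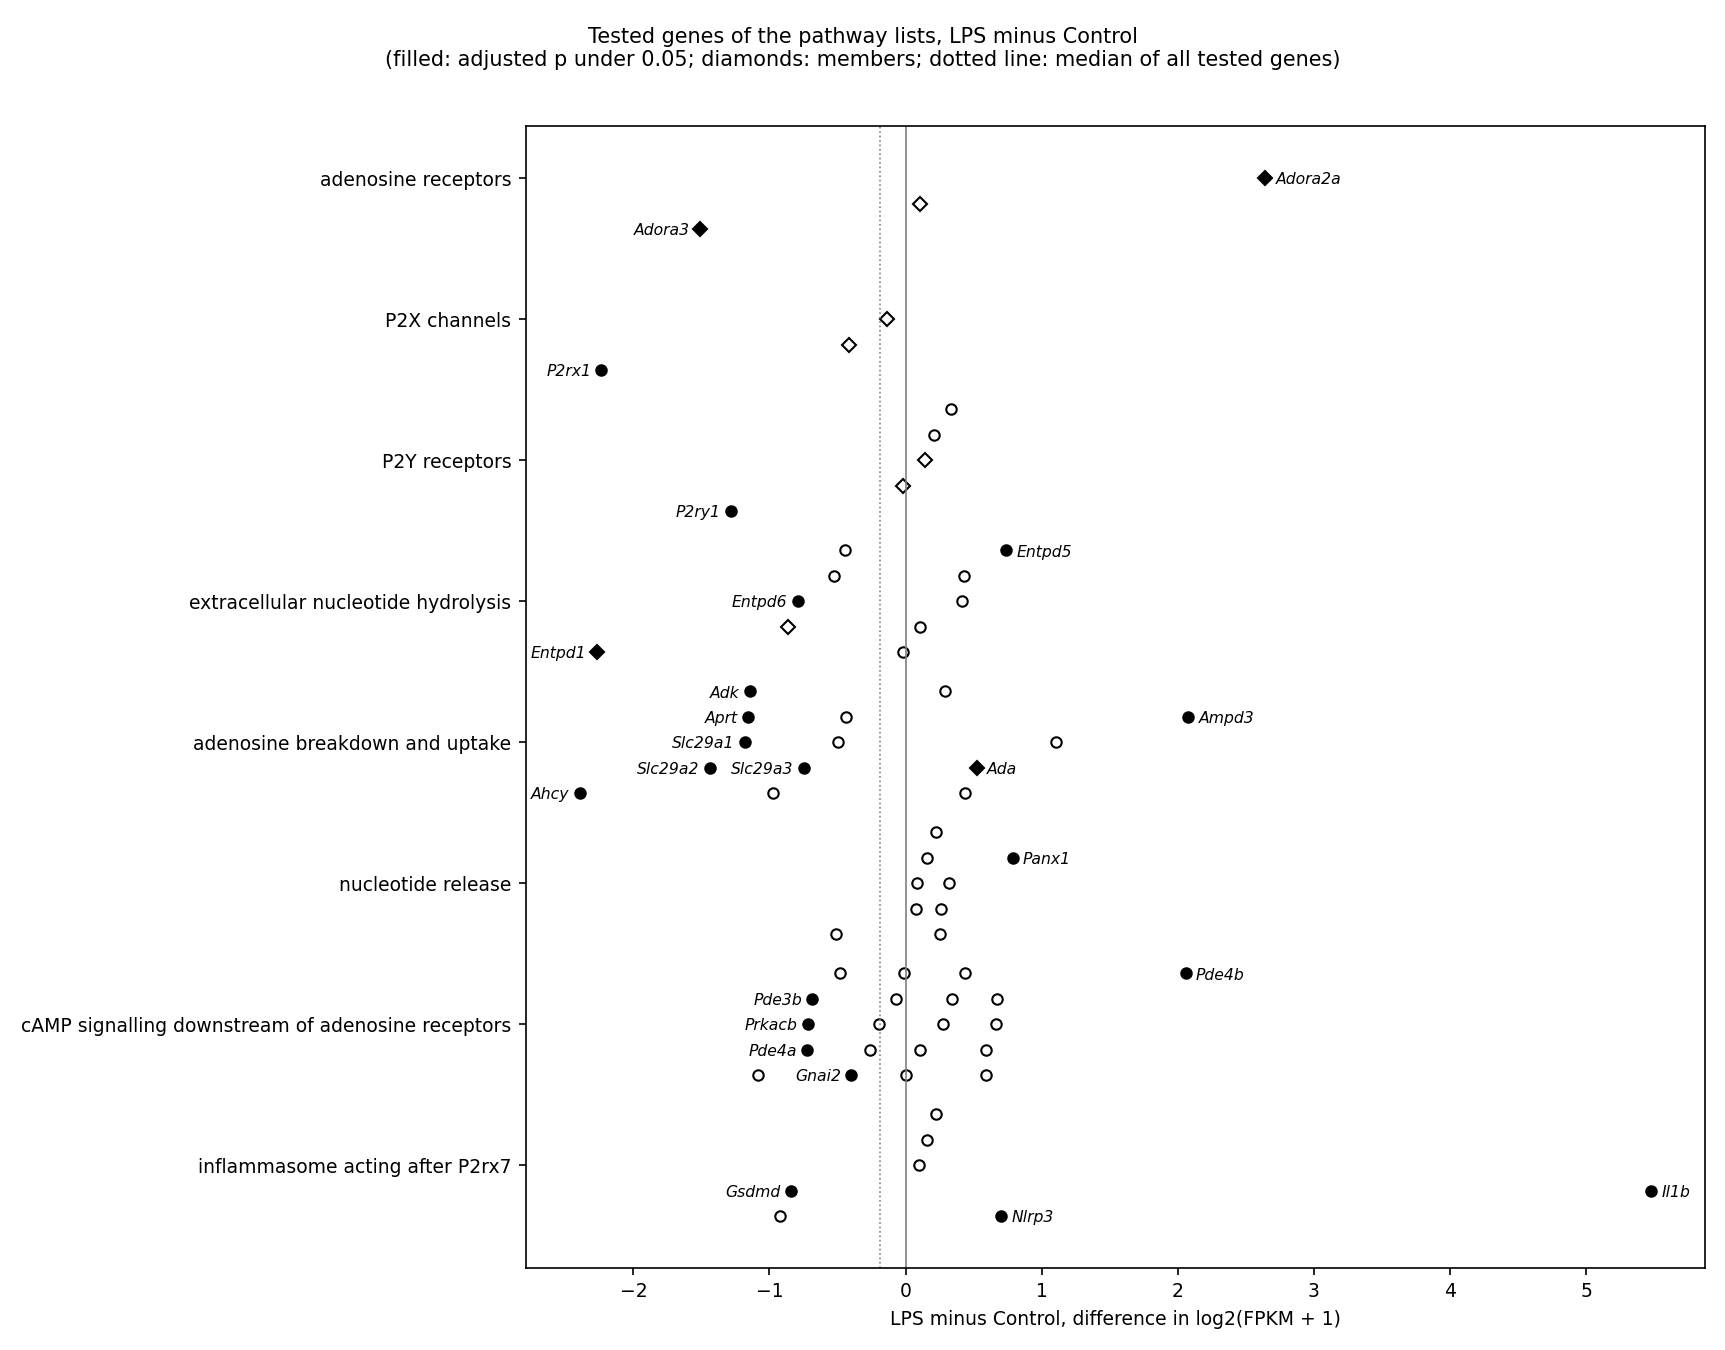
Difference in log2(FPKM + 1), LPS minus Control, of each tested gene of the pathway lists, with 1 band of points per list, filled where the adjusted p was under 0.05, diamonds for members and a dotted line at the median of all tested genes. Il1b lies highest at 5.48, Adora2a lies at 2.64, Ampd3 and Pde4b lie near 2, and Ahcy and P2rx1 lie below -2 with Entpd1.

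The genes whose profile over the 9 libraries was most like that of Adora2a, by the root mean square difference of centred log2(FPKM + 1) values, were Cd200 at 0.163, Cdkn1a at 0.229 and Nfkbia at 0.248. Cd200 encodes a ligand that restrains myeloid cells, Cdkn1a the cell cycle inhibitor p21, and Nfkbia the NF-kB inhibitor. Cd200 averaged 198 ± 32.6 FPKM in LPS+EVs, 197 ± 52.9 FPKM in LPS and 32.8 ± 6.76 FPKM in Control (SD, n = 3 each). The genes most like Entpd1 were Dlgap5 at 0.346, Pik3cd at 0.364 and Cdca8 at 0.373, and their profiles lay further from it. Dlgap5 and Cdca8 act in mitosis, and Pik3cd encodes a PI3-kinase subunit of leukocytes.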

How the data were processed

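The deposited table holds FPKM for 20442 genes in 9 libraries, and the submitters' processing notes name fastp, HISAT2, HTSeq, R 3.2.0 and the build mRatBN7.2. Settings and strand use in counting are not given in the sources used here, so reads of overlapping genes cannot be told apart. FPKM values move in steps of 1 fragment, and the steps gave whole fragments, within 0.01, for 18832 of 18833 genes seen in at least 2 libraries, up to a whole factor shared by all counts of a gene. The values stayed in the authors' FPKM scaling, with no count model. The 11141 genes that reached 1 FPKM in 3 or more libraries were kept, 1 was added before log2, and limma 3.58.1 in R 4.3.3 with a mean-variance trend fitted 1 mean per group. P-values are two-sided and adjusted by Benjamini-Hochberg over all tested genes. The fit was tested on simulated data.

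Replicates of a group differed by far more than counting error (the lowest chi-square of a pair was 54.4 per degree of freedom). Replicate numbers come from the labels and were taken to pair the cultures because every same-number correlation was over 0.1. Some pairs of different numbers were over 0.1 too, such as LPS 1 with LPS+EVs 3 at 0.426 and Control 1 with LPS+EVs 3 at 0.129. The rule therefore cannot establish the pairing, and results with the block rest on assuming it. Alternatives were another pseudocount (0.1 FPKM), no filter, median-of-ratios scaling, the replicate block, the 6 compared libraries alone and each replicate left out. Libraries 1 and 3 alone were added after seeing the data. The members and gene lists were chosen with earlier results of these data known. Named genes are all members, up to 4 genes per list with the smallest adjusted p in LPS against Control, any list gene called in LPS+EVs against LPS, and the 3 nearest genes by profile for the member with the largest difference in LPS against Control and in LPS+EVs against LPS. T and NK cell markers summed to 10.1 to 12.3 FPKM in LPS+EVs, 8.35 to 14.6 in LPS and 18.9 to 31.1 in Control. B cell markers summed to 0.0271 to 0.109 FPKM in LPS+EVs, 0.0229 to 0.189 in LPS and 0.00884 to 0.222 in Control. Erythroid and megakaryocyte markers summed to 609.8 to 1395 FPKM in LPS+EVs, 604 to 1829 in LPS and 538 to 1497 in Control. That last sum was mostly Pf4, at 599 to 1382 FPKM in LPS+EVs, 591 to 1818 in LPS and 431 to 1060 in Control. Hba-a2 of that list had 2.32 to 6.58 FPKM in LPS+EVs, 3.49 to 7.61 in LPS and 53.7 to 437 in Control. Of the 4 tested genes of that list, 2 passed as higher with LPS and 1 as lower.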

Additional observations from a re-analysis of the deposited data

How the results depend on the processing

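In both comparisons with Control, Adora2a, Adora3 and Ada kept their direction and an adjusted p under 0.05 under every alternative run. Entpd1 did so in LPS against Control. Of 390 values of members under alternatives, 330 kept direction and side of the threshold, 48 changed sign, 7 newly passed and 5 no longer passed. All sign changes were of differences that did not pass in the fit of all 9 libraries, and only P2ry6 passed after the change, in LPS against Control with libraries 1 and 3 alone (limma adjusted p = 0.0176). With the replicate block, which pairs the cultures of 1 number, 4 members instead of 2 were lower in each comparison with Control, the added ones being Nt5e and P2rx7, beside 35.5% of all tested genes lower in LPS and 37.4% lower in LPS+EVs under that fit, and it changed no other member's call. Members lower in LPS+EVs against Control numbered 1 without the filter and 1 with median-of-ratios scaling, and 1 to 2 when single replicates were left out. The block with that scaling gave 2694 instead of 1368 genes higher in LPS against Control and 2819 instead of 1505 in LPS+EVs against Control. In LPS+EVs against LPS, 0 to 1 genes were higher when single replicates were left out, and the 1 gene appeared without LPS replicate 2; with the block 600 genes had an unadjusted p under 0.05 and none passed.

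Median-of-ratios scaling, with or without the block, turned LPS minus Control to 0.077 for P2rx4 and to 0.16 for P2ry6, LPS+EVs minus LPS to 0.0070 for P2rx7 and LPS+EVs minus Control to 0.12 for P2ry14. Adding 0.1 FPKM turned LPS+EVs minus LPS of P2rx7 to 0.014. Libraries numbered 1 and 3 alone gave 0.60 for P2ry6 and -0.013 for P2ry14 in LPS minus Control, -0.081 for Adora2a in LPS+EVs minus LPS, and 0.21 for P2ry6 in LPS+EVs minus Control. With single replicates left out, LPS minus Control ran from -1.43 to -0.45 for Nt5e, without passing, and from -0.18 to 0.31 for Adora2b, -0.39 to 0.073 for P2rx4, -0.26 to 0.44 for P2ry6 and -0.21 to 0.48 for P2ry14. LPS+EVs minus LPS ran from -0.25 to 0.22 for Adora2a, -0.10 to 0.40 for Adora2b, -0.083 to 0.077 for Adora3, -0.10 to 0.97 for Entpd1, -0.37 to 0.60 for Nt5e, -0.048 to 0.46 for P2rx4, -0.15 to 0.18 for P2rx7, -0.70 to 0.065 for P2ry6 and -0.72 to 0.29 for P2ry14. LPS+EVs minus Control ran from -0.042 to 0.51 for Adora2b, -0.18 to 0.27 for P2rx4, -0.44 to 0.047 for P2ry6 and -0.58 to 0.43 for P2ry14. Apart from fewer samples where replicates were left out, the cause was not tested. Depth limits Adora3 after LPS, where 0 to 20 fragments were counted.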
